A study of Mus musculus with 8 samples.

Results

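Primary peritoneal mesothelial cells (MCs) from CAV1-/- mice were compared with MCs from WT littermates after 24 h of mechanical stretch. The comparison set 2 CAV1-/- stretched cultures against 2 WT stretched cultures, 4 of the 8 poly-A RNA-seq libraries of the series, chosen by their labels. The published description of this experiment gives a larger number of samples per condition, and any others were not analysed here. The mice were of the line B6.Cg-CAV1tm1mls/J, in which the gene is inactivated in the germline and so in every cell type. Cells of all 4 cultures grew to confluence without movement and were then stretched. CAV1-/- cultures 1 and 2 came from the animals labelled 1 and 2, and WT cultures 1 and 2 from those labelled 3 and 4, so the same culture number in both genotypes is not the same animal. Each animal also gave a static culture, which set the genotype difference on stretch beside the one without it. The static cultures also entered the gene filter and the estimate of spread behind the SE and p-values, unless the stretched libraries were fitted alone. Age, the stretch regime of the mouse cells and whether cells of several mice were pooled under an animal number are not given in the sources used here.

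MCs form the single-layered lining of the peritoneal cavity. They carry both epithelial features, such as simple keratins, tight junctions and a mucin-bearing surface, and the intermediate filament vimentin, and under injury or mechanical load they can shift towards a fibroblast-like state, the mesothelial-to-mesenchymal transition (MMT). CAV1 is the scaffold protein of caveolae, the flask-shaped pits of the plasma membrane that flatten under tension and take part in the handling of TGF-β receptors and in mechanosensing through YAP and TAZ. The question put by the comparison was how stretched MCs differ when CAV1 is lacking.

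The 4 libraries held 15861571 to 21203938 recovered reads, so that 3 reads stood for 0.146 to 0.185 CPM (counts-per-million, normalized between libraries by the TMM method). Of 13687 genes in the table, 13665 reached 1 CPM in at least 2 of the 8 libraries and were tested. The spread within a genotype was wide: 1629 genes differed by at least 1 on the log2(CPM + 1) scale between the 2 CAV1-/- cultures and 1168 between the 2 WT cultures, against 828 between the group means. Y-linked Ddx3y, Eif2s3y, Kdm5d and Uty were read in all 4 cultures, and Xist was not in the table.

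The cultures carried the MC label, and the markers of the label themselves differed with genotype. Of 12 measured markers of MCs, 9 were lower in CAV1-/- cultures by at least 1 on the log2 scale without overlap between the groups, against 2.36% of all genes, while Wt1, a transcription factor of the mesothelium, was read at 133, 94.9, 74.9 and 118 CPM in WT cultures 1 and 2 and CAV1-/- cultures 1 and 2. Markers of leukocytes went with 1 culture. Their sum over 13 genes was 4897 CPM in CAV1-/- culture 1, 356 CPM in CAV1-/- culture 2, 477 CPM in WT culture 1 and 86.5 CPM in WT culture 2, and none of the 13 was at 0. Fibroblast markers (10 genes) summed to 953 CPM in CAV1-/- culture 1, against 2321 to 4086 CPM in the other cultures. In bulk RNA, fewer cells of a type and less RNA per cell cannot be told apart. Of 10 endothelial markers, Pecam1, Tie1, Erg and Lyve1 were not in the table. The 6 measured summed to 62.5 and 54.2 CPM in WT cultures 1 and 2 and to 28.9 and 71.9 CPM in CAV1-/- cultures 1 and 2.

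The threshold was passed by 8 genes, and 7 of them were lower without CAV1. They were the keratin Krt8, the mesothelial surface protein Lrrn4, the tight junction claudin Cldn15, the retinaldehyde dehydrogenase Aldh1a1, the prostaglandin-degrading enzyme Hpgd, the surface peptidase Dpp4 and the fibrocystin-like membrane protein Pkhd1l1. The single gene that rose was the pseudogene Gm7809. At an adjusted p under 0.05 (limma with Benjamini-Hochberg adjustment, used for every adjusted p given here unless another tool is named), these 8 were 0.0585% of all genes, 0.0512% lower and 0.00732% higher. Without adjustment, 856 genes (6.26%) had a p of at most 0.05, of which 522 (3.82%) were lower and 334 (2.44%) higher in CAV1-/- cultures.

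Cav1 itself (ENSMUSG00000007655, chr6:17306335-17341452 in GRCm38, plus strand) was read at 570 and 247 CPM in WT stretched cultures 1 and 2 and at 20.0 and 12.8 CPM in CAV1-/- stretched cultures 1 and 2. Every CAV1-/- culture lay far below both WT cultures, as the labels say, and the WT cultures were the more spread. The group means were 409 ± 228 CPM and 16.4 ± 5.11 CPM (SD, n = 2 each), a 24.9-fold difference (log2 difference -4.47, SE 0.62). The adjusted p was 0.124, above the threshold. The 413 and 234 reads left in CAV1-/- cultures are counted per gene, so the exons they came from are not known, and the antisense gene Gm15581 overlaps Cav1 where reads carry no strand.

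No other caveolar gene differed by as much as 1 on the log2 scale. Cav2, the partner caveolin, stood at 55.9 and 19.6 CPM in WT cultures and at 53.1 and 15.7 CPM in CAV1-/- cultures. The groups overlapped, and the log2 difference of -0.19 had an SE of 0.97. Ptrf (cavin-1), which coats caveolae together with CAV1, was at 513 and 535 CPM in WT and at 569 and 408 CPM in CAV1-/- cultures, again overlapping. Of the 11 caveolar coat and neck genes measured, Cav1 alone differed by at least 1 on the log2 scale without overlap, as 4.42% of all genes did, and the other 10 lay between -0.24 and 0.25. None of those 10 passed the threshold. The sign of 7 of them (Pacsin2, Cav2, Ptrf, Murc, Sdpr, Prkcdbp and Ehd2), and of Ehd4 at a difference of 0.00, turned under at least 1 of 18 alternative settings.

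Krt8 (chr15:101996698-102004482, minus strand), which encodes a keratin of simple epithelia, was at 244 and 289 CPM in WT stretched cultures and at 38.9 and 39.1 CPM in CAV1-/- stretched cultures. The CAV1-/- cultures were almost equal and did not overlap with WT. Krt8 fell by 2.74 on the log2 scale (SE 0.15, adjusted p = 0.0114), a 6.84-fold difference of the means.

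Lrrn4 (chr2:132868305-132880891, minus strand), a leucine-rich repeat membrane protein used as a mesothelial marker, was at 282 and 297 CPM in WT and at 16.5 and 15.3 CPM in CAV1-/- cultures. Replicates agreed closely in both genotypes. It fell by 4.10 on the log2 scale (SE 0.27, adjusted p = 0.0208), 18.2-fold between the means.

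Dpp4 (chr2:62330073-62412231, minus strand), a cell-surface peptidase that cleaves chemokines and incretins, was at 47.8 and 86.2 CPM in WT and at 0.825 and 2.19 CPM in CAV1-/- cultures. Both CAV1-/- values were low but above the level of 3 reads. The fall of 4.76 on the log2(CPM + 1) scale (SE 0.38, adjusted p = 0.0265) was the largest decrease on that scale among the 13665 genes tested. The scale compresses falls to near 0 CPM, and the means of Dpp4 differed 44.5-fold. Pkhd1l1 (chr15:44457494-44601369, plus strand) followed with 88.3 and 134 CPM in WT and 2.57 and 3.78 CPM in CAV1-/- cultures, a fall of 4.73 (SE 0.39, adjusted p = 0.0297). For both genes the lowest WT culture was more than an order of magnitude above the highest CAV1-/- culture.

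Aldh1a1 (chr19:20492715-20643465, plus strand), which oxidizes retinaldehyde to retinoic acid, was at 61.3 and 118 CPM in WT and at 2.91 and 3.61 CPM in CAV1-/- cultures. It fell by 4.34 on the log2 scale (SE 0.32, adjusted p = 0.0247). Its antisense neighbour C730002L08Rik overlaps it. Hpgd (chr8:56294585-56321043, plus strand), which inactivates prostaglandins, was at 30.3 and 34.9 CPM in WT and at 2.57 and 2.24 CPM in CAV1-/- cultures and fell by 3.30 (SE 0.25, adjusted p = 0.0247). Cldn15 (chr5:136966616-136975858, plus strand), a pore-forming claudin, was at 17.5 and 19.7 CPM in WT and at 0.825 and 0.985 CPM in CAV1-/- cultures and fell by 3.36 (SE 0.27, adjusted p = 0.0265). None of these 3 genes overlapped between genotypes.

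Gm7809 (ENSMUSG00000086869) was at 0.296 and 0.185 CPM in WT, or 6 and 3 reads, and at 34.0 and 39.5 CPM in CAV1-/- cultures. It rose by 4.92 on the log2 scale (SE 0.20, adjusted p = 0.00312). RefSeq places Gm7809 at chr17:21966169-21968272 of GRCm38 and gives Tpm4-ps as a synonym, a pseudogene name that refers to the tropomyosin gene Tpm4. Tpm4 was itself at 1401 and 1102 CPM in WT and at 1524 and 1174 CPM in CAV1-/- cultures, so reads may be split between the genes and the value of Gm7809 is uncertain. Another pseudogene entry, without a symbol (ENSMUSG00000099397, chr17:21967501-21968242, minus strand), inside the same interval, was at 0.345 and 0 CPM in WT and at 10.1 and 13.2 CPM in CAV1-/- cultures (log2 difference 3.44, adjusted p = 0.0624).

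**Figure D1:**
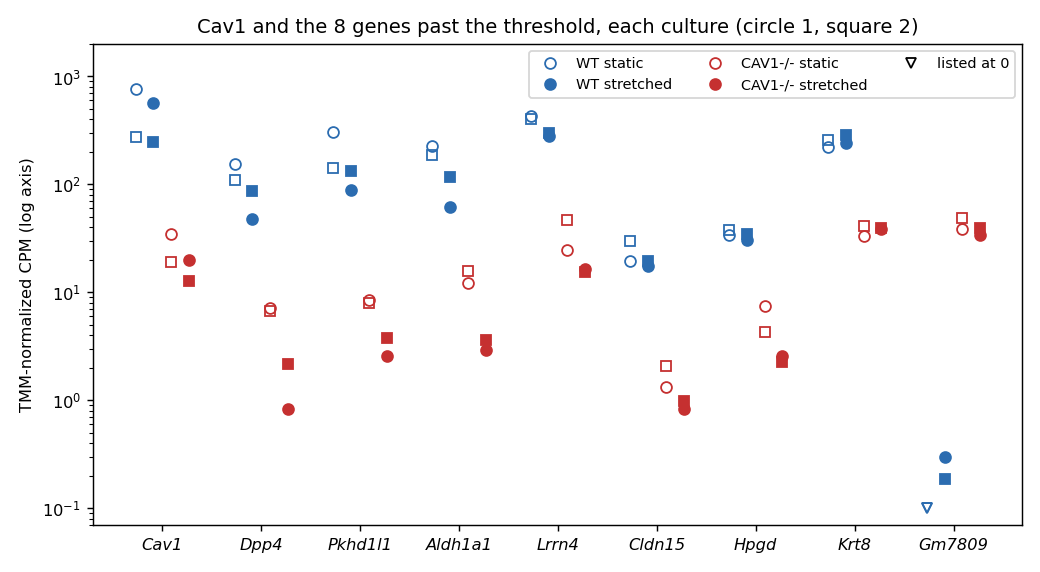
TMM-normalized CPM on a log axis of Cav1 and the 8 genes past the threshold in all 8 cultures. Blue marks WT and red CAV1-/-, filled symbols stretched and open symbols static cultures, circles culture 1 and squares culture 2, and triangles values listed at 0. The 7 genes that fell lie below WT in both CAV1-/- cultures, static and stretched, and Gm7809 lies above.

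The 8 calls rested on the whole set of cultures. Without CAV1-/- culture 1, without CAV1-/- culture 2 or without WT culture 2, limma called 0 genes, with 681, 897 and 768 genes at an unadjusted p of at most 0.05. A fit of the 4 stretched libraries alone called 0 as well (635 at an unadjusted p of at most 0.05). Without WT culture 1, limma called 5, and 3 of these (Krt8, Aldh1a1 and Gm7809) were among the 8. On recovered reads, edgeR's quasi-likelihood test called 6 genes (0.0439%), all among the 8, and left Dpp4 at an adjusted p of 0.0841 and Pkhd1l1 at 0.0791, while DESeq2 called 236 genes (1.73%), all 8 included. Over the 18 alternatives, Dpp4's adjusted p ran from 1.06e-24 (DESeq2) to 0.265 and that of Pkhd1l1 from 1.49e-26 (DESeq2) to 0.269. With 2 cultures a group, an exact permutation test could not go below p = 0.333 for a single gene.

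The genotype differences of the 8 genes were present in static cultures of the same animals. All 8 had the same direction without stretch, and 7 of the 8 were among the 10 genes (0.0732%) called there. Hpgd was the exception, with a static log2 difference of -2.46 (adjusted p = 0.0509). The test of the difference between the stretched and the static contrast (interaction) found 0 genes by limma, with 66 genes at an unadjusted p of at most 0.05 and none of the 8 among them. Hpgd had the interaction closest to that limit (log2 -0.84, SE 0.35, unadjusted p = 0.0517). The interaction called 0 genes under each of its 15 alternatives as well, with 41 to 656 genes at an unadjusted p of at most 0.05.

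Further large decreases missed the adjusted threshold. Of 719 genes with an unadjusted p of at most 0.05, no overlap and a mean of at least 5 CPM in the higher group, the 10 largest decreases held 4 of the called genes and Cav1, Gpm6a, Upk3b, Krt14, Smpd3 and Krt7. Krt14, a basal keratin, was at 98.1 and 165 CPM in WT and at 5.39 and 6.13 CPM in CAV1-/- cultures (log2 difference -4.25, adjusted p = 0.0821). Krt7, a simple-epithelial keratin, was at 140 and 408 CPM in WT and at 18.1 and 10.2 CPM in CAV1-/- cultures (-4.04, adjusted p = 0.114). Both keratins were separated between genotypes, and the WT cultures differed from each other more than the CAV1-/- cultures did.

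Gpm6a, a membrane glycoprotein of neurons that is also a mesothelial marker, was at 44.5 and 62.3 CPM in WT and at 1.80 and 1.31 CPM in CAV1-/- cultures (-4.40, adjusted p = 0.106). Smpd3, a neutral sphingomyelinase, was at 93.4 and 86.2 CPM in WT and at 5.58 and 2.90 CPM in CAV1-/- cultures (-4.16, adjusted p = 0.0963). Upk3b, an uroplakin of the mesothelial surface, was at 202 and 441 CPM in WT and at 3.15 and 49.5 CPM in CAV1-/- cultures (-4.37, adjusted p = 0.596). Upk3b was low in both CAV1-/- cultures, but the cultures differed from each other by more than an order of magnitude.

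**Figure D2:**
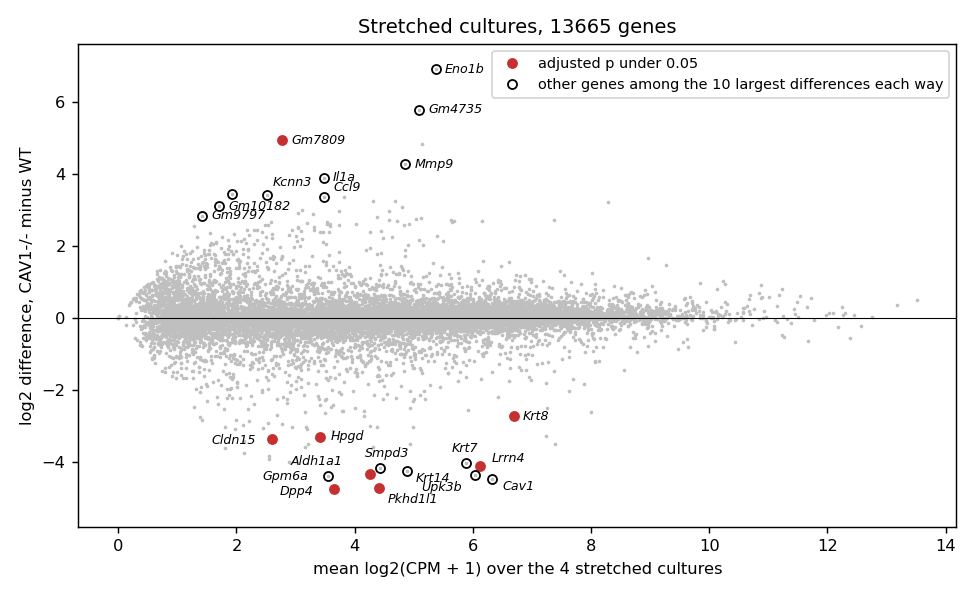
Log2 difference between CAV1-/- and WT stretched cultures (vertical axis) against the mean log2(CPM + 1) of the 4 cultures (horizontal axis) for 13665 genes. Red points are the 8 genes with an adjusted p under 0.05 and open circles the other genes among the 10 largest differences in each direction, 1 of them without a symbol. The most negative differences, down to -4.76 for Dpp4, include keratins and mesothelial surface genes, and the most positive, up to 6.89 for Eno1b, include several pseudogenes.

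The promoter windows of the genes that fell are shown because 4 of the 6 with a window in the RefSeq table (GRCm38.p6) share a short motif. GGAATG, the core recognized by TEAD factors, the DNA-binding partners of YAP and TAZ, was searched on both strands in the 250 bases before each start and was found in the windows of Lrrn4, Dpp4, Cldn15 and Aldh1a1 but not in those of Krt8 and Hpgd. It was in 12.6% of all 32851 windows. TGANTCA, the site of AP-1 factors, was searched likewise and stood in 6.75% of all windows and in 2 of these 6. The windows of the 4 genes follow, written 5′ to 3′ on the gene's strand, with both motifs in capitals on either strand.

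Lrrn4 (chr2:132880863-132881112, minus strand): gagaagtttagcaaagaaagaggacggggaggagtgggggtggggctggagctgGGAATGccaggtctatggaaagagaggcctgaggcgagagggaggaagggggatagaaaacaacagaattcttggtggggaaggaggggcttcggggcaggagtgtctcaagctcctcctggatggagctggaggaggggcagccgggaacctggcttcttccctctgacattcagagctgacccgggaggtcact
Dpp4 (chr2:62412232-62412481, minus strand): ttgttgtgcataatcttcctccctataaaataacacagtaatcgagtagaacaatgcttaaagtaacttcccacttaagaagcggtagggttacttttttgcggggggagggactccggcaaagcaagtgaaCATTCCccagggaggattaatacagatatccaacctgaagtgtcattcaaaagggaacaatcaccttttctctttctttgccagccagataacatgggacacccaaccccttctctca
Cldn15 (chr5:136967619-136967868, plus strand): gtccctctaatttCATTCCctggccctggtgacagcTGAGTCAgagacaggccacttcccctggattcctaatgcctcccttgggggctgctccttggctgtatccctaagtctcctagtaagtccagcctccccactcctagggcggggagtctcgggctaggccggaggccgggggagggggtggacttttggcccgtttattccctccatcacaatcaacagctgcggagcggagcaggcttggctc
Aldh1a1 (chr19:20492333-20492582, plus strand): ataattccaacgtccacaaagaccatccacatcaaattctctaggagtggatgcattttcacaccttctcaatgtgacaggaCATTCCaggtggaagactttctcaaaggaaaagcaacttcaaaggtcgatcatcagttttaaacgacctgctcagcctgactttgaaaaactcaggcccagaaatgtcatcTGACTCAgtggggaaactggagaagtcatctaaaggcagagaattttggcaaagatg

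A match is a description of the letters and shows neither binding nor cause. Over the 11 genes with a window that were called lower or were among the 10 largest decreases, 6 windows held GGAATG, those of Krt14 and Upk3b included. CCAAT, searched on both strands, was in none of the 11 and in 33.9% of all windows. TATAAA was in 3 of the 11 and in 12.4% of all windows, and GGGCGG in 4 of the 11 and in 32.7% of all windows.

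The mesothelial identity list as a whole lay lower in CAV1-/- stretched cultures. Of 22 genes listed, 21 were measured, 2 fell past the threshold (Lrrn4 and Krt8) and 0 rose. By at least 1 on the log2 scale without overlap, 13 were lower and 0 were higher, against 2.36% and 2.06% of all genes. The median log2 difference was -1.65, beside 0.00 over all genes. The count held in each CAV1-/- culture taken alone against both WT cultures: 15 of 21 were lower in culture 1 and 14 in culture 2, where 4.56% and 3.29% of all genes were. The same shares of all genes, 2.36% lower and 2.06% higher, stand behind every later count of members that differ by at least 1 without overlap.

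Upk1b, an uroplakin, was at 557 and 729 CPM in WT and at 76.9 and 137 CPM in CAV1-/- cultures (log2 difference -2.62, adjusted p = 0.0963). Msln, the surface glycoprotein mesothelin, was at 311 and 425 CPM in WT and at 193 and 20.4 CPM in CAV1-/- cultures (-2.50). Msln was thus much lower in culture 2 than in culture 1, whereas Upk3b had the opposite order. Krt18, the partner keratin of Krt8, was at 231 and 206 CPM in WT and at 93.3 and 51.0 CPM in CAV1-/- cultures (-1.65, adjusted p = 0.175). Muc16, which binds mesothelin, was near the detection level in CAV1-/- cultures at 0.243 and 0.438 CPM, against 3.65 and 2.96 CPM in WT (-1.68). Ezr, which links the membrane of microvilli to actin, was at 625 and 617 CPM in WT and at 204 and 250 CPM in CAV1-/- cultures (-1.46, adjusted p = 0.136). The lowest WT value of each of these 5 genes was above the highest CAV1-/- value.

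In the same list, 5 members overlapped between genotypes, and they included defining genes. Wt1 has been given above. Krt19 was at 37.3 and 21.7 CPM in WT and at 69.4 and 4.38 CPM in CAV1-/- cultures, so that CAV1-/- culture 1 was the highest and culture 2 the lowest of the 4. Tbx18 was the one member with a positive difference (0.24), and Cdh3 and Slpi were the others that overlapped. Calb2 was not measured. Pdpn was lower without overlap but by less than 1, at 779 and 596 CPM in WT and at 458 and 407 CPM in CAV1-/- cultures (-0.66).

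**Figure D3:**
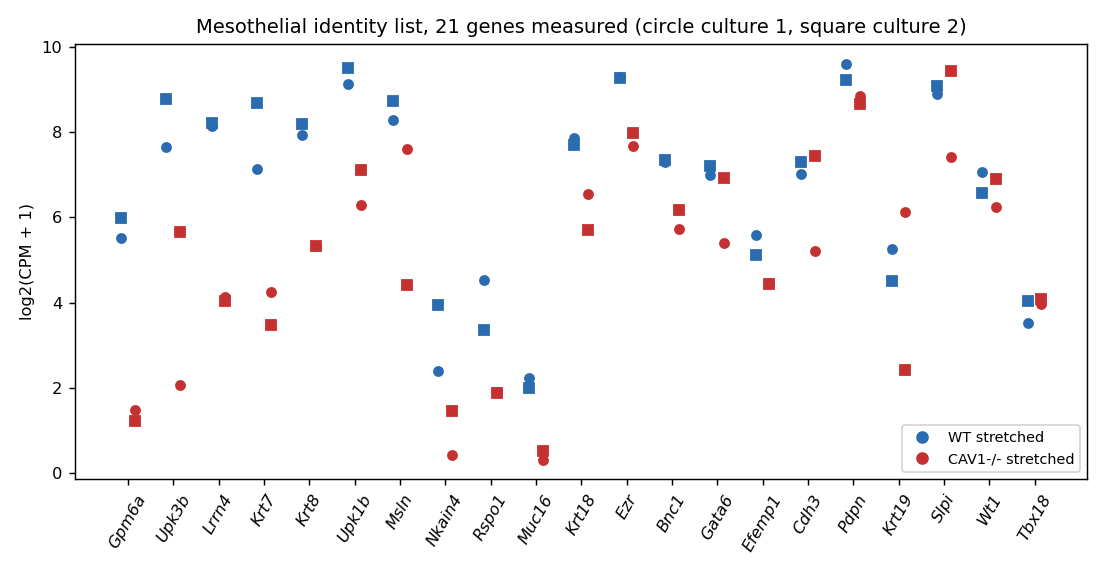
Log2(CPM + 1) of the 21 measured genes of the mesothelial identity list in the 4 stretched cultures, ordered from the most negative to the most positive difference (blue WT, red CAV1-/-, circle culture 1, square culture 2). For 16 genes both red symbols lie below both blue ones, and Cdh3, Krt19, Slpi, Wt1 and Tbx18 overlap.

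Epithelial junction genes other than Cldn15 were not separated to the same size. Of 13 measured, 2 were lower by at least 1 without overlap (Cldn15 and Cldn3) and 0 higher, with a median of -0.46. Cldn3 was at 6.51 and 4.68 CPM in WT and at 2.77 and 0.328 CPM in CAV1-/- cultures. Esrp2, a splicing regulator of epithelial cells, was at 18.2 and 16.5 CPM in WT and at 8.98 and 7.88 CPM in CAV1-/- cultures (-0.96, adjusted p = 0.364). Tjp1, which encodes ZO-1, was at 122 and 124 CPM in WT and at 129 and 131 CPM in CAV1-/- cultures. Cdh1 was not in the table.

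Genes of the mesenchymal transition showed smaller differences. Of 21 measured, 0 were higher and 1 was lower by at least 1 without overlap, near the 2.06% and 2.36% of all genes, and the median was 0.28. The lower gene was S100a4, a calcium-binding protein often used as a fibroblast marker, at 178 and 281 CPM in WT and at 94.4 and 90.0 CPM in CAV1-/- cultures (-1.27, adjusted p = 0.325). Zeb2, a repressor of epithelial genes, was at 86.0 and 84.0 CPM in WT and at 149 and 146 CPM in CAV1-/- cultures (0.79, adjusted p = 0.459). Tpm1, an actin-binding tropomyosin, was at 1777 and 1349 CPM in WT and at 2345 and 2298 CPM in CAV1-/- cultures (0.58). Snai2 was at 5.97 and 11.9 CPM in WT and at 13.3 and 15.7 CPM in CAV1-/- cultures. These 3 genes did not overlap between genotypes, but none differed by 1 on the log2 scale. Vim was at 1688 and 2336 CPM in WT and at 2234 and 1826 CPM in CAV1-/- cultures and overlapped.

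Of 14 transcripts that the study followed as readouts of MMT, TGF-β and YAP signalling, none passed the threshold, 2 were higher and 0 lower without overlap (14.6% and 15.9% of all genes), and the other 12 overlapped between genotypes. Snai1 was at 38.0 and 78.7 CPM in WT and at 51.0 and 92.7 CPM in CAV1-/- cultures (log2 difference 0.33, SE 0.65). Fn1 was at 9934 and 9708 CPM in WT and at 9031 and 21206 CPM in CAV1-/- cultures (0.49, SE 0.53), with CAV1-/- culture 2 alone above WT. Col1a1 was at 7085 and 9488 CPM in WT and at 7782 and 14066 CPM in CAV1-/- cultures (0.35, SE 0.55). For all 3 the difference was smaller than its standard error, and its sign turned under 1 or 2 of the 18 alternatives.

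Ctgf, a target of both YAP and TGF-β, was at 1180 and 1225 CPM in WT and at 1322 and 716 CPM in CAV1-/- cultures (-0.31, SE 0.43). Ankrd1, a YAP target, was at 103 and 38.9 CPM in WT and at 238 and 63.5 CPM in CAV1-/- cultures (0.95, SE 0.99). Tgfb1 was at 66.0 and 105 CPM in WT and at 90.4 and 118 CPM in CAV1-/- cultures (0.31, SE 0.28). The groups of each of these 3 genes overlapped. Tgfbr1, the type I receptor, was at 34.1 and 65.1 CPM in WT and at 56.8 and 117 CPM in CAV1-/- cultures (0.78, SE 0.53). Acta2, Mmp2, Cyr61 and Yap1 overlapped as well, with differences between -0.22 and 0.43.

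The 2 readouts without overlap were interleukins. Il6 was at 5.47 and 2.77 CPM in WT and at 8.98 and 83.7 CPM in CAV1-/- cultures (2.56, SE 1.00, adjusted p = 0.753), so CAV1-/- culture 2 carried most of the difference. Il11, a cytokine of the same family linked to fibrosis, was at 8.78 and 8.13 CPM in WT and at 25.7 and 16.1 CPM in CAV1-/- cultures (1.18, SE 0.50, adjusted p = 0.827). Without stretch, Il6 was at 1.47 and 2.50 CPM in WT and at 28.8 and 70.0 CPM in CAV1-/- cultures.

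Of 23 TGF-β superfamily ligands, receptors and latency genes measured, 2 were higher and 2 lower by at least 1 without overlap, against 2.06% and 2.36% of all genes, and the median was 0.07. All 4 were ligands or a ligand subunit. Inhba, the βA subunit of activin, was at 154 and 179 CPM in WT and at 449 and 352 CPM in CAV1-/- cultures (1.25, SE 0.42, adjusted p = 0.651). Tgfb2 was at 12.5 and 10.3 CPM in WT and at 28.0 and 20.5 CPM in CAV1-/- cultures (1.02, SE 0.31). Bmp4 was at 9.37 and 12.8 CPM in WT and at 3.01 and 5.25 CPM in CAV1-/- cultures (-1.26, SE 0.48), and Bmp6 at 10.2 and 8.26 CPM in WT and at 3.54 and 2.79 CPM in CAV1-/- cultures (-1.30, SE 0.29). Both CAV1-/- cultures were above WT for the activin subunit and TGF-β2 and below WT for both BMPs, and none of the 4 passed the threshold. Tgfb3 (-0.13) and Inhbb (-0.18) overlapped, as did Tgfb1.

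Of 21 Smads and feedback targets, 0 differed by at least 1 without overlap. Id1, a direct target of BMP receptors, was at 110 and 58.0 CPM in WT and at 46.5 and 41.8 CPM in CAV1-/- cultures (-0.85). Smad6, an inhibitor of BMP signalling that BMPs induce, was at 39.4 and 33.8 CPM in WT and at 21.6 and 24.2 CPM in CAV1-/- cultures (-0.65, adjusted p = 0.467). Both were lower in each CAV1-/- culture by less than 1. Smad7 and Skil, which TGF-β induces, overlapped. At any size, 2 of the 21 were higher without overlap, Smurf1 (0.47) and Junb (0.44), against 14.6% of all genes. Lower without overlap were 3, Id1, Smad6 and Id3, against 15.9% of all genes. Of 22 YAP/TAZ genes and targets, Tgfb2 alone differed by at least 1, and the median was 0.00.

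Secreted matrix and its proteases held both directions. Of 28 matrix glycoproteins and proteoglycans, 6 were lower by at least 1 without overlap (Nid2, Eln, Spock2, Fbln5, Lama5 and Ogn) and 1 was higher (Spp1), against 2.36% and 2.06% of all genes, with a median of -0.14. Fbln5, an elastic fibre protein, was at 143 and 125 CPM in WT and at 45.2 and 47.1 CPM in CAV1-/- cultures (-1.52, SE 0.14, adjusted p = 0.0548). Spock2, a proteoglycan, was at 22.9 and 43.4 CPM in WT and at 1.65 and 2.90 CPM in CAV1-/- cultures (-3.34, adjusted p = 0.0624). Nid2, a basement membrane nidogen, was at 290 and 1090 CPM in WT and at 20.0 and 117 CPM in CAV1-/- cultures (-3.50, adjusted p = 0.516). Fbln5 and Spock2 lay just above the threshold, and Nid2 varied several-fold within each genotype. Its relative Nid1 was higher without overlap, at 520 and 842 CPM in WT and at 907 and 1834 CPM in CAV1-/- cultures (0.96).

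Of 20 collagens, 1 was higher and 1 lower by at least 1 without overlap. Col5a3 was at 34.0 and 92.0 CPM in WT and at 118 and 236 CPM in CAV1-/- cultures (1.56), and Col5a1, another chain of the same fibril-nucleating collagen, at 703 and 1129 CPM in WT and at 1512 and 1966 CPM in CAV1-/- cultures (0.95). Col8a2 was at 64.7 and 161 CPM in WT and at 0.631 and 50.5 CPM in CAV1-/- cultures (-3.49). Col5a2, the other collagen V chain measured, overlapped at 2126 and 2635 CPM in WT and 2323 and 2066 CPM in CAV1-/- cultures (-0.11). Col5a3 and Col5a1 were thus above WT in each CAV1-/- culture while Col5a2 was not. Col8a2 was below the WT mean by 5.98 on the log2 scale in CAV1-/- culture 1 and by 1.00 in culture 2.

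Among 16 matrix proteases and inhibitors, the gelatinase Mmp9 and the collagenase Mmp13 were higher by at least 1 and 0 were lower. Mmp9 (chr2:164940780-164955850) was at 10.9 and 2.65 CPM in WT and at 55.6 and 285 CPM in CAV1-/- cultures (4.27, SE 0.87, adjusted p = 0.299). Mmp13 (chr9:7272514-7283331) was at 13.5 and 7.89 CPM in WT and at 65.5 and 42.1 CPM in CAV1-/- cultures (2.24, SE 0.52, adjusted p = 0.352). Neither overlapped. Of 15 integrins, Itga5, Itgb3 and Itga2 were higher and Itgb4 lower by at least 1 without overlap. Itga5, the fibronectin receptor subunit, was at 1006 and 710 CPM in WT and at 1946 and 1535 CPM in CAV1-/- cultures (1.03, SE 0.30). Itgb4, the hemidesmosomal integrin subunit, was at 11.9 and 15.2 CPM in WT and at 5.87 and 1.31 CPM in CAV1-/- cultures (-1.86).

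Il1a was the cytokine with the largest difference. It was at 4.88 and 0.431 CPM in WT and at 24.6 and 70.9 CPM in CAV1-/- cultures (3.89, SE 0.75, adjusted p = 0.249). Of 20 cytokines and chemokines, 1 was higher and 2 (Cxcl16 and Il18) were lower by at least 1 without overlap, and the median was 0.57. Cxcl16, a membrane-bound chemokine, was at 95.1 and 100 CPM in WT and at 38.9 and 44.9 CPM in CAV1-/- cultures (-1.21, SE 0.18, adjusted p = 0.144). Serpinb2, an inhibitor of plasminogen activators, was at 11.1 and 29.6 CPM in WT and at 54.5 and 290 CPM in CAV1-/- cultures (2.73, adjusted p = 0.562). Il1a, Il6, Serpinb2 and Mmp9 were higher in CAV1-/- culture 2 than in culture 1, and Mmp13, Il11 and Inhba higher in culture 1. Of 13 leukocyte markers, 12 were highest in culture 1, and their part in these differences was not tested.

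Mmp13 and Il1a are shown by their promoter windows because both hold TGANTCA and neither holds GGAATG. The windows are on the gene's strand of GRCm38.p6, with TGANTCA in capitals.

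Mmp13 (chr9:7272264-7272513, plus strand): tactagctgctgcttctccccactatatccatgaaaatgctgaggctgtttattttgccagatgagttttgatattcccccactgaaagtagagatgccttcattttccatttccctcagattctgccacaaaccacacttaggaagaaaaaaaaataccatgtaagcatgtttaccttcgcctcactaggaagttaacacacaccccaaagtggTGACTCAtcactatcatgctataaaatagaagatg
Il1a (chr2:129309973-129310222, minus strand): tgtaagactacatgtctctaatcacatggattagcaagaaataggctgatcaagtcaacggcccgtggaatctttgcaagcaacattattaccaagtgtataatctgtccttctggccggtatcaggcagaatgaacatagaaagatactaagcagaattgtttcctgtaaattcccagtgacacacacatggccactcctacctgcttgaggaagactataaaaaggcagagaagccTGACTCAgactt

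The window of Serpinb2 held TGANTCA too, and no window for Mmp9 was in the table. Of the 3 genes with a window that were called higher or were among the 10 largest increases, Il1a and Ccl9 held TGANTCA and Kcnn3 did not, beside 6.75% of all windows. TATAAA was searched too and was in the same 2 of the 3, beside 12.4% of all windows. The windows of Mmp13 and Serpinb2 held TATAAA as well, so TGANTCA was not the only motif that these genes shared.

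Leukocyte genes were higher in CAV1-/- cultures mainly through 1 culture. Of 13 markers, 5 (Cd52, Cd53, Fcer1g, Laptm5 and Itgam) were higher by at least 1 without overlap, and the median was 1.89, but taken alone against both WT cultures, CAV1-/- culture 1 was higher by at least 1 for 12 of them (5.13% of all genes) and culture 2 for 2 (2.96%). Lyz2, lysozyme of myeloid cells, was at 345 and 29.6 CPM in WT and at 3920 and 231 CPM in CAV1-/- cultures, so that culture 2 was below WT culture 1. Itgam, a myeloid integrin, was at 12.4 and 4.50 CPM in WT and at 205 and 21.2 CPM in CAV1-/- cultures (2.98, adjusted p = 0.904). Ccl9 and Slc7a11 were likewise highest in CAV1-/- culture 1. Ccl9, a chemokine of myeloid cells, was at 3.85 and 1.54 CPM in WT and at 91.5 and 12.97 CPM in CAV1-/- cultures (3.36, adjusted p = 0.788), and Slc7a11, a cystine transporter, at 22.3 and 19.0 CPM in WT and at 189 and 45.9 CPM in CAV1-/- cultures (2.13). The part of the leukocyte signal in such differences was not tested.

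**Figure D4:**
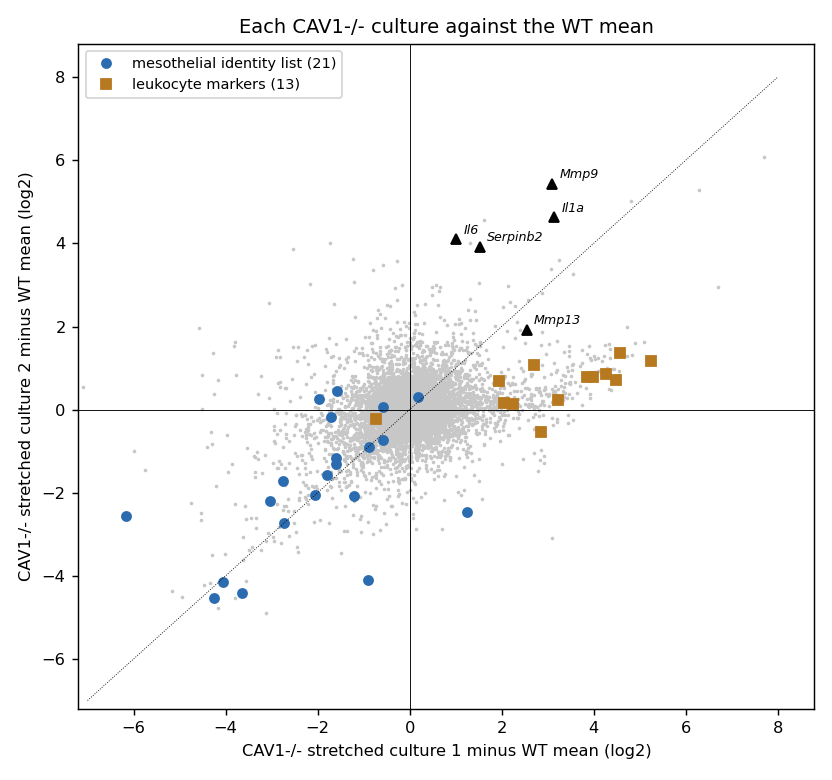
Log2 difference of CAV1-/- culture 1 (horizontal) and culture 2 (vertical) from the mean of the WT stretched cultures for 13665 genes (grey), with the 21 mesothelial identity genes (blue), the 13 leukocyte markers (brown squares) and 5 inflammatory or protease genes (black triangles). The dotted line marks equal differences. Leukocyte markers reach above 5 in culture 1 and stay below 2 in culture 2, whereas most mesothelial genes are negative in both.

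Interferon-response genes were lower in the median by little. Of 22 measured, 9 were lower and 1 was higher without overlap (15.9% and 14.6% of all genes), the median was -0.35, and Oasl2 alone was lower by at least 1. Oasl2, an interferon-induced antiviral gene, was at 13.4 and 18.2 CPM in WT and at 2.04 and 5.25 CPM in CAV1-/- cultures (-1.93, adjusted p = 0.299). Of 16 complement and acute-phase genes (median -0.35), C2, C1s1 and Cd55 were lower by at least 1 without overlap, and Orm1 was higher. C2 was at 64.8 and 41.9 CPM in WT and at 29.4 and 5.64 CPM in CAV1-/- cultures. C1s1 was at 312 and 447 CPM in WT and at 59.6 and 220 CPM in CAV1-/- cultures. Cd55 was at 71.7 and 77.0 CPM in WT and at 12.5 and 58.7 CPM in CAV1-/- cultures. Orm1 was at 0.296 and 0 CPM in WT and at 11.2 and 0.383 CPM in CAV1-/- cultures. C2 lay further from WT in culture 2 and C1s1, Cd55 and Orm1 in culture 1, and none passed the threshold.

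In the retinoid list of 17 genes, Aldh1a1 fell and Aldh1a7 and Crabp2 were lower by at least 1, while Crabp1, a cytoplasmic retinoic acid binder, was higher at 25.1 and 21.7 CPM against 4.09 and 15.3 CPM in WT (1.42). Aldh1a2, the main retinaldehyde dehydrogenase of the embryonic mesothelium, overlapped at 258 and 118 CPM in WT and 161 and 154 CPM in CAV1-/- cultures. Neither the 28 cell cycle genes (median -0.13), nor the 18 cholesterol genes (-0.23), nor the 20 glycolysis and hypoxia genes (0.31) held a member that differed by at least 1 without overlap. Hk2, hexokinase 2, was at 78.5 and 76.5 CPM in WT and at 142 and 121 CPM in CAV1-/- cultures (0.75, adjusted p = 0.352). Surface peptidases other than Dpp4, such as Anpep, Mme and Enpep, did not differ by 1 without overlap.

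**Figure D5:**
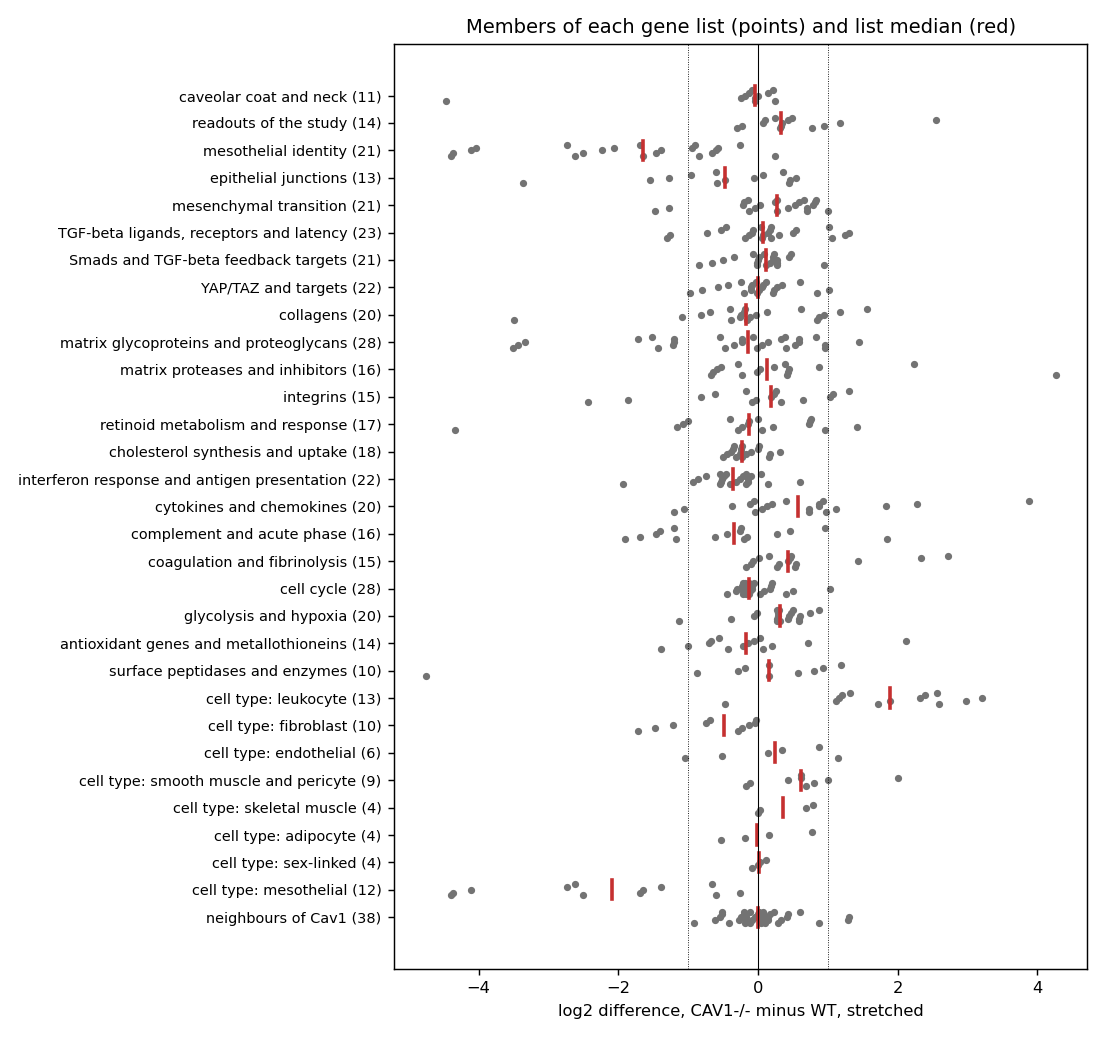
Log2 difference between CAV1-/- and WT stretched cultures of every measured member of each gene list (grey points, number of genes in brackets), with the list median as a red bar and dotted lines at -1 and 1. The mesothelial lists have medians of -1.65 and -2.09 and the leukocyte list one of 1.89, and the other medians lie between -0.49 and 0.61.

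The 3 most positive differences of all genes were those of Eno1b, Gm4735 and Gm7809. Eno1b was at 7.35 and 0.739 CPM in WT and at 793 and 258 CPM in CAV1-/- cultures (6.89, SE 0.90, adjusted p = 0.106), and was listed at 0 in both static WT cultures. RefSeq gives Eno1, the glycolytic enolase, among its synonyms. Eno1 itself was at 3282 and 1571 CPM in WT and at 2656 and 1786 CPM in CAV1-/- cultures, and RSEM divides reads among near-identical copies by estimate. The pseudogene Gm4735 was at 20.1 and 0 CPM in WT and at 356 and 177 CPM in CAV1-/- cultures (5.78, adjusted p = 0.352). Gm9797 was at 0 CPM in both WT stretched cultures and at 6.36 and 5.97 CPM in CAV1-/- cultures (adjusted p = 0.616). That was at least 37.0-fold higher against the mean level of 3 reads in the WT libraries. Without stretch, Gm9797 was at 4.617 and 0 CPM in WT and at 4.615 and 0.514 CPM in CAV1-/- cultures, and the groups overlapped. The value of Eno1b is uncertain because reads of copies are divided by estimate. Whether the pseudogenes Gm4735 and Gm9797 share reads with other genes was not tested. Kcnn3, a calcium-activated potassium channel, was at 0.986 and 0.554 CPM in WT and at 19.5 and 15.8 CPM in CAV1-/- cultures (3.40, SE 0.50, adjusted p = 0.144), without overlap.

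Genes close to Cav1 on chromosome 6, the neighbours of the targeted locus, were taken as a list by position. Of 38 genes within 10 Mb, 0 passed the threshold, 2 were higher (Thsd7a and Tfec) and 0 lower by at least 1 without overlap, and the median was 0.00. Tes, a focal adhesion protein, was at 196 and 144 CPM in WT and at 257 and 253 CPM in CAV1-/- cultures (0.60).

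Some genes differed far more between the 2 CAV1-/- cultures than between genotypes. Mgp, the matrix Gla protein, was at 2.43 CPM in CAV1-/- culture 1 and at 687 CPM in culture 2, with WT cultures at 189 and 1179 CPM between them or above. Acta1, skeletal actin, had the reverse order, at 1231 and 15.9 CPM in CAV1-/- cultures and 424 and 47.9 CPM in WT. Both genes overlapped between genotypes, and their WT cultures 1 and 2 had the same order as CAV1-/- cultures 1 and 2. On the log2 scale, culture 2 minus culture 1 was 2.64 in WT and 7.65 in CAV1-/- cultures for Mgp. For Acta1 it was -3.12 in WT and -6.19 in CAV1-/- cultures. Of the 282 genes higher by at least 1 without overlap, 196 were higher in culture 1 than in culture 2, and of the 322 lower genes 195 were lower in culture 1.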

How the data were processed

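RNA-seq was measured in 8 cultures of primary mouse peritoneal MCs. Adapters were trimmed with cutadapt, reads were quantified with RSEM on GRCm38 (Ensembl annotation), and the authors deposited a table of signal values, CPM scaled by TMM factors of edgeR, without pooling replicates. The kit does not mark strand. Whole reads came back within 0.01 of a read for 100% of values. In R 4.3.3, log2(CPM + 1) of genes with at least 1 CPM in 2 of the 8 libraries was fitted in limma 3.58.1 (1 mean per group, trended eBayes, 4 residual degrees of freedom, two-sided, Benjamini-Hochberg threshold 0.05), with edgeR 4.0.16 and DESeq2 1.42.0 on recovered reads as alternatives. The stretched contrast was tried on simulated data with 200 changed genes among 13665. False calls made up 2.55% of calls by limma, 2.02% by edgeR and 11.7% by DESeq2. They made up 7.73% by limma with a block for the culture number. The simulated spread between animals was set in advance, not taken from the cultures, so these shares need not hold here. The interaction and the fits with an animal term were not tried.

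Named were all called genes, the 10 largest differences each way (unadjusted p at most 0.05, no overlap, mean of at least 5 CPM), caveolar genes and study readouts, and up to 4 members of each list without overlap. Other members were named to account for their list after their values were seen, and Mgp and Acta1 for the spread within CAV1-/- cultures. Genes that the rule named but that are withheld are not reported here. Lists were described by counts and medians, with no test. The members and lists were chosen with earlier results of these data known. Positions are from GENCODE M21 (13577 of 13665 genes matched) and promoter windows from RefSeq, both GRCm38. Each animal gave 1 culture per condition, and p-values measure the spread between cultures of a group. The fit had no animal term, so static and stretched cultures of an animal counted as independent. Their deviations from the group means correlated across genes at 0.703 in WT and 0.85 in CAV1-/- animals. With the animal as a random effect, limma called 6 genes, 5 of them among the 8.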

Additional observations from a re-analysis of the deposited data

How the results depend on the processing

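The 8 genes called in the stretched genotype comparison became 236 with DESeq2 on recovered reads, 110 with the replicate block, and 0 in a fit of only the 4 stretched libraries or without animal 1 (635 and 951 genes at an unadjusted p of at most 0.05). Leaving out 1 stretched culture gave 0 to 5 calls, with the lone culture assumed to vary like the other groups. Under the other settings 6 to 9 genes were called. The culture numbers pair different animals across genotypes. Same-numbered stretched cultures nevertheless deviated from their group means with a correlation of 0.484 across genes. What the shared number stands for was not tested. All 8 calls were among the 110 of the replicate block and among the 236 of DESeq2. Among genes with a symbol that the naming rule picked, 52 gene and setting pairs lost significance, 43 gained it and 0 turned direction while called. That set holds genes not reported here and leaves out some named in the text. The interaction stayed at 0 under all of its settings, with the animal as replicate block included (581 genes at an unadjusted p of at most 0.05). The median difference of all genes ran from -0.0082 to 0.0074 on the log2 scale over the settings. Counting noise limits genes near 3 reads, and 2 cultures a group limit all others.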
